A study of Mus musculus with 2 samples.

Results

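The respiratory chain genes were taken as all rows of the cluster count table whose gene name begins with Nduf, Uqcr, Atp5, Cox4i, Cox5, Cox6, Cox7, Cox8, mt-Nd, mt-Co, mt-Cytb or mt-Atp, together with Sdha, Sdhb, Sdhc and Sdhd. This gave 106 of 31053 genes, of which 13 are encoded by mitochondrial DNA and 93 by nuclear DNA. The nuclear genes comprise 84 subunit genes, 8 complex I assembly factors (Ndufaf1 to Ndufaf8) and Atp5s, a gene related to complex V. Of the 106 genes, 102 had at least 20 counts over all cells. The cells were leukocytes of the aortic arch and thoracic aorta of Apoe-/- mice, which lack apolipoprotein E and develop atherosclerosis. All mice were on western diet over 4 weeks, with a weekly dose of either nt-LNA (30 mg/kg) or saline. Live CD45+/CD3- cells were sorted and sequenced as 1 droplet-based 3' library per treatment, and how many mice each library pools is unknown from the labels.

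The respiratory chain sits in the inner mitochondrial membrane. Complexes I and II pass electrons from NADH and succinate to ubiquinone, complex III passes them to cytochrome c, and complex IV passes them to oxygen. Complexes I, III and IV pump protons, and complex V uses the resulting gradient to make ATP. Complexes I, III, IV and V are built from proteins of both genomes, so the products of mitochondrial and nuclear transcription have to be brought together, while complex II is wholly nuclear encoded. Mitochondrial transcripts are made and kept inside the organelle, and nuclear transcripts of these subunits are translated in the cytosol and their proteins imported.

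The deposited counts are unique molecular identifiers (UMIs) added up within 20 clusters regardless of library, so no value of a gene can be set between the treatments. The 20 clusters held 7613 cells and between 212515 and 12985745 UMIs each, and 2 barcodes occurred in both libraries. Clusters 2, 5, 14 and 16 had few UMIs per cell, with means between 1278 and 3935, against 3467 to 24869 in the other 16 clusters; cluster 9, at 3467, lay under the 3935 of cluster 14. The 4 clusters held 25.5% of nt-LNA cells (1243 of 4871, exact 95% interval 24.3 to 26.8) and 12.8% of saline cells (350 of 2742, 11.5 to 14.1). With 1 library per treatment, treatment and library cannot be told apart in these shares, and the intervals do not cover differences between libraries. Each low-UMI cluster was set against 1 other cluster, picked from an earlier description of the clusters. Nearness was not measured, and further clusters share the same deposited names. Cluster 2 was set against the B cell-like cluster 1, and both are deposited as B cells; cluster 2 has B cell markers among its leading 50 genes but none among its leading 10, and is left unnamed. Cluster 5 was set against cluster 9, both deposited as T cells. The cycling-like cluster 14 was set against cluster 6, with which it shares cell-cycle genes but not lineage: cluster 14 is deposited as T cells and cluster 6 as Macrophages, and the 8 T lineage markers summed to 8891 and 2622 CPM (the count over the total UMIs of the cluster, scaled to 1000000). Cluster 16, like type 2 innate lymphoid cells and led by Il13, was set against cluster 11, led by Il17a and left unnamed; both are deposited as T cells. Although the sort was for cells without CD3, Cd3e, a chain of that complex, stood at 1331 CPM in cluster 5, 1100 in cluster 14, 817 in cluster 9 and 684 in cluster 13. Clusters were made from the same counts, so what follows describes them and no p-value is given; 95% intervals cover counting error only.

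Transcripts of the mitochondrial genome took a larger share of the UMIs in the low-UMI clusters than in any other cluster. The 13 mitochondrial encoded genes made up 10.1% of UMIs in cluster 2 (10.1 to 10.2), 7.24% in cluster 5 (7.18 to 7.30), 11.2% in cluster 14 (11.1 to 11.3) and 8.42% in cluster 16 (8.30 to 8.54). In the other 16 clusters the share ran from 2.53% in cluster 11 to 4.29% in cluster 13, with a median of 3.16%. The 84 nuclear subunit genes went the other way in clusters 2, 5 and 16, at 0.931%, 1.33% and 0.995% of UMIs, against 1.54% to 3.03% in the other 16. Cluster 14 stood apart from these 3, with 2.36%, inside the range of the other 16 but under the 3.03% of cluster 6.

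The ratio of mitochondrial to nuclear subunit UMIs does not use the total of the cluster. It was 10.9 in cluster 2 (10.67 to 11.04), 5.46 in cluster 5 (5.35 to 5.58), 4.74 in cluster 14 (4.66 to 4.81) and 8.46 in cluster 16 (8.09 to 8.86), against 0.966 in cluster 6 to 2.38 in cluster 1. The ranges of the low-UMI and the other clusters did not overlap. The 4 clusters were set apart for few UMIs per cell, so they differ from the other 16 in depth as well as in this ratio. Cluster by cluster the ratio did not follow depth. Cluster 9, with 3467 UMIs per cell, had a ratio of 1.48, and cluster 14, with 3935, had 4.74. Cluster 5, with 1278, had a lower ratio than cluster 2, with 2296. The share of cytosolic ribosomal protein UMIs was 9.14% to 10.3% in the 4 clusters, against 14.2% to 34.2% in the other 16. The part of depth and of cell quality in the ratio was not tested.

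**Figure D1:**
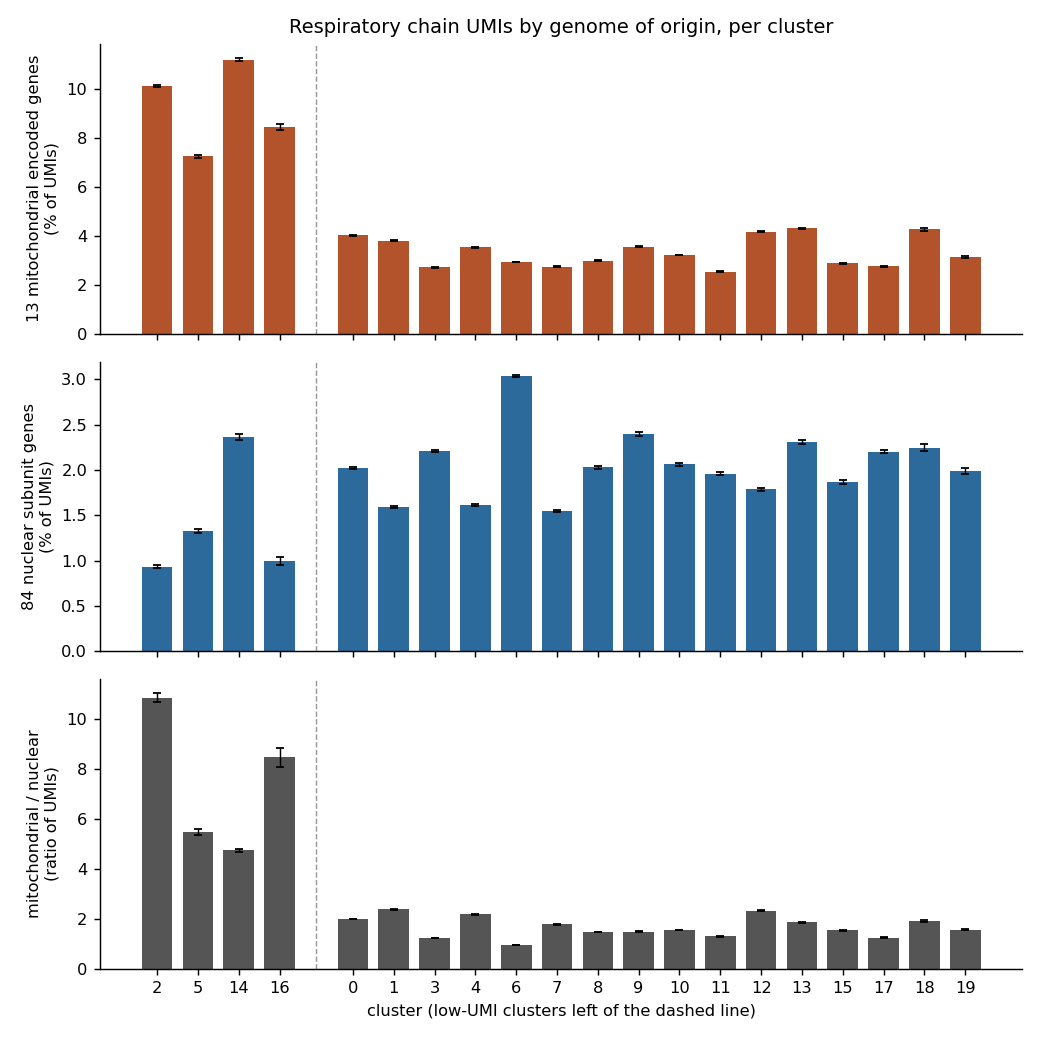
Share of each cluster's UMIs from the 13 mitochondrial encoded genes (top, %), from the 84 nuclear subunit genes (middle, %), and the ratio of both sums (bottom), with exact 95% intervals for counting error. The low-UMI clusters 2, 5, 14 and 16, left of the dashed line, have mitochondrial shares of 7.24% to 11.2%, against 2.53% to 4.29% in the other 16 clusters.

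Per cell, mitochondrial UMIs were close to the matched cluster in 2 pairs, while nuclear subunit UMIs were several-fold lower in all 4 pairs; for cluster 14 this rests on the choice of cluster 6. Cluster 2 averaged 232 mitochondrial UMIs per cell and cluster 1 224, a ratio of 1.03 (1.03 to 1.04). Cluster 16 averaged 160 and cluster 11 168, a ratio of 0.952 (0.936 to 0.968). Clusters 5 and 14 were lower than their matches: 92.6 in cluster 5 against 123 in cluster 9 (ratio 0.751), and 440 in cluster 14 against 645 in cluster 6 (ratio 0.682). Nuclear subunits gave 21.4 UMIs per cell in cluster 2 and 94.2 in cluster 1, a ratio of 0.227 (0.223 to 0.231). They gave 16.9 in cluster 5 and 83.0 in cluster 9 (0.204), 92.9 in cluster 14 and 668 in cluster 6 (0.139), and 18.9 in cluster 16 and 130 in cluster 11 (0.146). Against clusters 9 and 13, deposited as T cells like cluster 14, the 92.9 of cluster 14 lay over the 83.0 of cluster 9 and under the 205 of cluster 13. All UMIs together had ratios of 0.388, 0.369, 0.179 and 0.287 in the pairs 2 over 1, 5 over 9, 14 over 6 and 16 over 11. In each pair the nuclear subunits thus lay under the ratio of all UMIs and the mitochondrial genes over it; cytosolic ribosomal proteins lay lower still, at 0.125, 0.189, 0.0666 and 0.103.

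**Figure D2:**
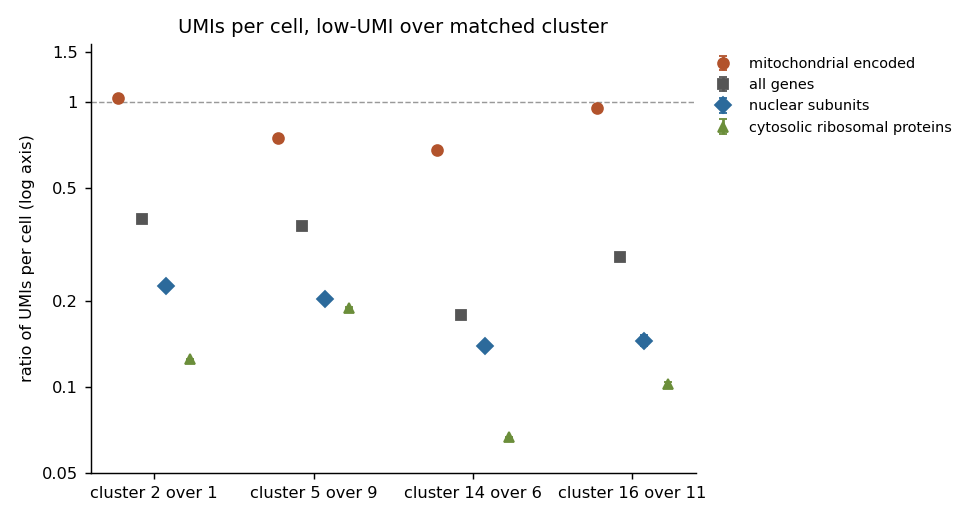
Ratio of mean UMIs per cell, low-UMI over matched cluster, on a log axis, for the mitochondrial encoded genes, all genes, the nuclear subunits and the cytosolic ribosomal proteins (bars: 95% intervals for counting error, mostly smaller than the symbols). In every pair the order from high to low is mitochondrial, all genes, nuclear subunits, ribosomal proteins.

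The shift between the genomes was present within each complex that both genomes build. For complex I, the NADH dehydrogenase, the mitochondrial to nuclear ratio was 2.81 to 6.56 in the low-UMI clusters and 0.773 to 1.76 in the other 16. For complex III it was 4.91 to 10.8 against 0.918 to 1.99, for complex IV 6.84 to 19.1 against 1.65 to 4.23, and for complex V 4.74 to 8.70 against 0.592 to 1.63. No range of the low-UMI clusters met that of the others.

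All 13 mitochondrial encoded genes were past 2-fold higher in cluster 2 over 1, 14 over 6 and 16 over 11, and 9 of 13 in cluster 5 over 9. Over all genes tested, those with at least 20 counts in the pair, 19.9%, 26.2%, 22.8% and 9.64% were past 2-fold higher in these 4 comparisons in the same order. The median log2 ratio of the 13 genes was 1.43, 1.89, 1.70 and 1.04 in that order, against 0.41, 0.31, 0.28 and 0.14 over all genes. mt-Co1, the catalytic subunit of complex IV, had 19380 CPM in cluster 2, 14669 in cluster 5, 19195 in cluster 14 and 16644 in cluster 16, against 5022 to 8869 CPM in the other 16 clusters. mt-Atp6, the proton channel subunit of complex V, had 20814, 16249, 23138 and 17453 CPM in clusters 2, 5, 14 and 16, against 4852 to 8445. mt-Cytb, the mitochondrial subunit of complex III, had 8160, 6252, 9935 and 5449 CPM, against 1892 to 4038. None of these 3 genes had overlapping values between the low-UMI clusters and the others.

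Of the 13 mitochondrial genes, 12 were higher in all 4 low-UMI clusters than in each of the other 16, against 3.07% of the 14202 genes with at least 20 counts in all. The exception was mt-Nd1, a core subunit of complex I: it had 3447, 1571, 4639 and 3374 CPM in clusters 2, 5, 14 and 16, and cluster 5 lay under the 1710 CPM of cluster 0. Within the mitochondrial pool, the shares of 9 of the 13 genes left the range of the other 16 clusters in a low-UMI cluster. No like count was made for other genes, and shares of a single pool depend on each other, so this count is a description only. mt-Co1 made up 17.2% to 20.3% of it in the low-UMI clusters and 18.1% to 21.1% in the others, and mt-Co3 14.6% to 15.4% against 13.9% to 15.2%. mt-Atp6 was 20.6% to 22.4% against 17.4% to 21.2%, and mt-Nd1 was 2.17% in cluster 5 and 2.45% in its match, cluster 9, the lowest values among all 20. mt-Nd6, which is read from the opposite strand to the other 12, was 0.109% to 0.192% against 0.0346% to 0.118%. No interval was computed for these shares of the pool, so small departures, such as that of mt-Co3, may lie within counting error. mt-Atp8 with mt-Atp6 and mt-Nd4l with mt-Nd4 overlap and share transcripts, so the split of reads within these pairs is uncertain.

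Nuclear subunits were lower in the low-UMI clusters than in their matched clusters. For cluster 14 this rests on the choice of reference, since its median log2 ratio was -0.078 over cluster 9 and -0.45 over cluster 13. The median log2 ratio was -0.90 in cluster 2 over 1 (75 subunits tested), -0.92 in cluster 5 over 9 (76), -0.68 in cluster 14 over 6 (78) and -1.12 in cluster 16 over 11 (75). Relative to the median of all genes these are differences of -1.31, -1.07, -0.98 and -1.40. Past 2-fold lower were 29 subunits in cluster 2 over 1 (6.23% of all genes), 30 in cluster 5 over 9 (9.07%), 29 in cluster 14 over 6 (14.8%) and 41 in cluster 16 over 11 (15.2%). Past 2-fold higher were 6 subunits in cluster 14 over 6 and 0 in the other 3 pairs, against 26.2% of all genes in cluster 14 over 6 and the 9.64% to 22.8% given above for the others. Of 75 subunits tested in all 4 pairs, 52 lay under 0 in each pair, against 21.4% of the 6863 genes tested in all 4, and 4 lay over 0 in each pair, against 37.9%. Transcript length moved with these ratios. Length was that of the longest protein coding transcript of each gene in GENCODE, which need not be the one expressed. Over all genes with an annotated length, Spearman's rho of the log2 ratio with length was 0.379 in cluster 2 over 1 (8950 genes), 0.374 in 5 over 9 (7779), 0.387 in 14 over 6 (10400) and 0.426 in 16 over 11 (7622). Genes with a long annotated transcript thus tended to be higher in the low-UMI clusters. The tested subunits had median lengths of 870 to 908 bases, against 3064.5 to 3118 bases over all genes. Within the subunits rho was 0.144 to 0.279, and the part of length in the shift was not tested.

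**Figure D3:**
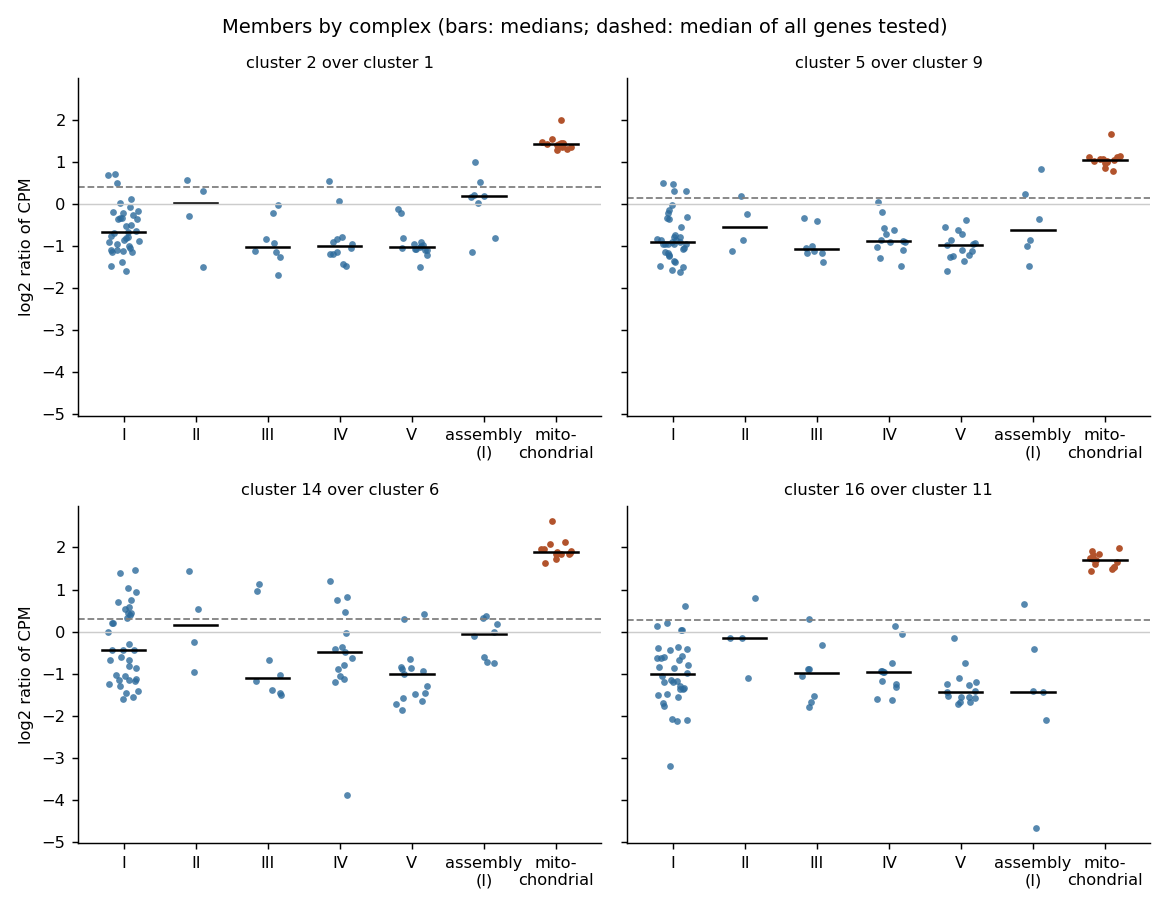
Log2 ratio of CPM, low-UMI over matched cluster, for each member with at least 20 counts in the pair, by complex (blue: nuclear; orange: mitochondrial encoded). Black bars are medians and the dashed line is the median of all genes tested; the points at -3.88 (Cox7a1) and -4.67 (Ndufaf1) have 0 UMIs in the low-UMI cluster, so their height depends on the pseudocount.

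Among complex I subunits, Ndufv2, a core subunit that carries an iron-sulfur cluster, was low throughout. It had 28.8, 68.4, 60.3 and 42.4 CPM in clusters 2, 5, 14 and 16, against 81.2, 153, 184 and 94.3 CPM in clusters 1, 9, 6 and 11. Its CPM ratios were 0.355 (0.253 to 0.487), 0.447 (0.324 to 0.607), 0.327 (0.240 to 0.437) and 0.449 (0.202 to 0.869), and all 4 values lay under the lowest of the other 16 clusters, 78.3 CPM in cluster 7. The accessory subunits Ndufa5, Ndufb10 and Ndufc1 were also past 2-fold lower in all 4 pairs. The core subunit Ndufs1 had 43.9, 64.6, 80.9 and 28.2 CPM in clusters 2, 5, 14 and 16, against 26.5, 45.7, 41.8 and 27.7 CPM in clusters 1, 9, 6 and 11. It thus went the other way in clusters 2, 5 and 14, and was level in cluster 16, with a log2 ratio of 0.029. The accessory subunit Ndufa13 had 438, 552, 1055 and 471 CPM, against 272, 446, 383 and 410.4 CPM in the matched clusters.

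Complex II, succinate dehydrogenase, has 4 subunits, and they did not move together. Sdha, the flavoprotein that oxidises succinate, had 106, 114, 267 and 136 CPM in clusters 2, 5, 14 and 16, against 71.8, 100.2, 98.8 and 78.4 CPM in clusters 1, 9, 6 and 11. The ratios were 1.48 (1.21 to 1.79), 1.14 (0.858 to 1.504), 2.70 (2.32 to 3.14) and 1.74 (1.13 to 2.59), so the interval for cluster 5 holds 1. Sdhb, the iron-sulfur subunit, had 32.7, 62.0, 91.1 and 56.5 CPM, against 93.0, 135, 178 and 122 CPM, with ratios of 0.352, 0.461, 0.511 and 0.463. Sdhc, a membrane anchor, had ratios between 0.821 and 0.902 with intervals that all hold 1. Sdhd, the other membrane anchor, had 62.2, 53.2, 184 and 51.8 CPM in clusters 2, 5, 14 and 16, against 49.999, 97.0, 126 and 58.0 CPM in clusters 1, 9, 6 and 11, so it was higher in clusters 2 and 14 and lower in clusters 5 and 16; the intervals in clusters 2 and 16 hold 1. The 4 subunits over 0 in each pair were Sdha, Ndufs1, Ndufa9 and Ndufa13, but with CPM computed without mitochondrial encoded and ribosomal protein genes Ndufa9 turned to -0.19 in cluster 2, and Ndufs1, Ndufa9 and Ndufa13 to -0.20, -0.11 and -0.036 in cluster 16, and against the mean of the other 16 clusters Ndufa9 was at -0.41 in cluster 2 and Ndufs1 at -0.062 in cluster 16. Of these 4 genes, Sdha kept its sign in every pair under each setting run.

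In complex III, Uqcrh, the hinge protein, had 212, 401, 348 and 268 CPM in clusters 2, 5, 14 and 16, against 680.0, 1042, 717 and 779 CPM in clusters 1, 9, 6 and 11. These 4 values lay under all of the other 16 clusters, whose lowest was 452 CPM. Uqcrfs1, the Rieske iron-sulfur protein, and Uqcrq were also past 2-fold lower in each pair. Uqcrc2, a core protein, was not: its log2 ratios were -0.23, -0.34, 1.12 and 0.31.

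In complex IV, Cox5b had 139, 211, 299 and 136 CPM in clusters 2, 5, 14 and 16, against 288, 451, 655 and 338 CPM in clusters 1, 9, 6 and 11. Its ratios were 0.484, 0.469, 0.457 and 0.403. Cox6a1, the broadly expressed form of subunit 6a, had ratios of 1.05, 1.03, 2.30 and 0.962, and the intervals in clusters 2, 5 and 16 hold 1. Ndufa4, named for complex I and now assigned to complex IV, had 496, 387, 1409 and 574 CPM, inside the 318 to 834 CPM of the other 16 clusters except in cluster 14.

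In complex V, the ATP synthase, Atp5h and Atp5k were low throughout. Atp5h, a subunit of the peripheral stalk, had 199.7 CPM in cluster 2, 318 in cluster 5, 397 in cluster 14 and 268 in cluster 16, against 422, 956, 1108 and 621 CPM in clusters 1, 9, 6 and 11. Atp5k, the small membrane subunit e, had 106, 146, 160.4 and 104 CPM, against 227, 375, 529 and 252 CPM. All low-UMI values of both genes lay under all of the other 16 clusters. The catalytic subunit Atp5b was less uniform, with log2 ratios between -0.93 and 0.31 over the 4 pairs, and Atp5a1, the other main subunit of the catalytic head, ran from -0.38 to 0.42.

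In all, 12 of the 75 subunits tested in all 4 pairs were past 2-fold lower in each, against 1.94% of the 6863 genes tested in all 4. Of the subunits tested in all 4 pairs, complex I held 4 of them (of 36), complex III 3 (of 8), complex IV 1 (of 12) and complex V 4 (of 15), and complex II held 0 of 4. Lower in all 4 low-UMI clusters than in each of the other 16 were 19 subunits, out of 84 in all and 80 with at least 20 counts. The share among the 14202 genes with that minimum was 2.56%, and 0 subunits were higher in all 4. Complex V held 7 of these 19 (Atp5d, Atp5e, Atp5h, Atp5j, Atp5k, Atp5l and a row named Atp5o), complex I 8, complex III 3 and complex IV 1, the paralog Cox7a2l. Of the complex I assembly factors, Ndufaf8 was also lower in all 4, with 18.8 to 52.6 CPM against 57.8 to 94.6 CPM.

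**Figure D4:**
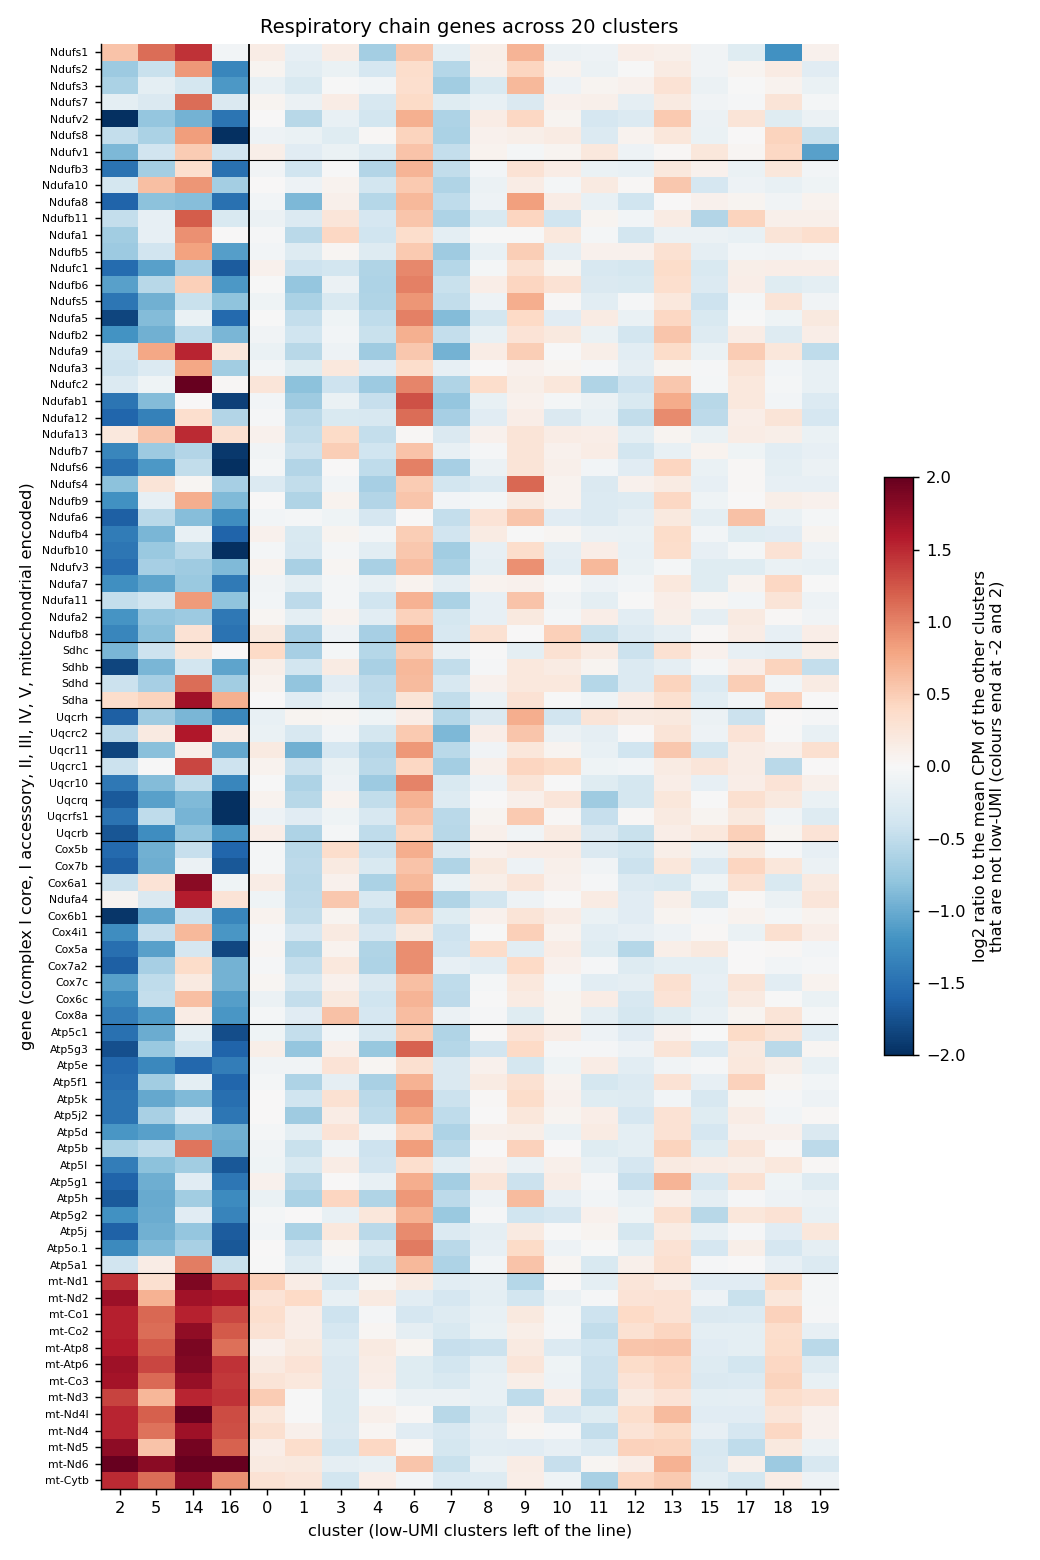
Log2 ratio of each respiratory chain gene's CPM to the mean CPM of the other clusters that are not low-UMI, for the 20 clusters (columns; low-UMI clusters left of the line) and the subunits with at least 20 counts by complex (rows; tissue isoforms not drawn). Blue nuclear rows over orange-red mitochondrial rows mark clusters 2, 5 and 16, cluster 14 mixes both colours among its nuclear rows, and cluster 6 is the reddest of the other 16 in the nuclear rows.

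The picture for cluster 14 turned on what it was set against. Over the mean of the other 16 clusters its nuclear subunits had a median of -0.17, with 15 of 80 past 2-fold higher (24.0% of all genes) and 4 past 2-fold lower (24.6%). Ndufc2, an accessory subunit of complex I, stood at 880.5 CPM there, against 105 to 334 CPM in the other 16 clusters. Against the same mean, 52 subunits were past 2-fold lower in cluster 2 (25.7% of all genes), 14 in cluster 5 (23.8%) and 48 in cluster 16 (34.8%), so in cluster 5 the share of subunits was near that of all genes.

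Other mitochondrial gene lists were set beside the subunits in the same pairs. Mitochondrial ribosomal proteins, which translate the mitochondrial transcripts, had median log2 ratios of -0.52, -0.64, -0.80 and -0.89 in the pairs 2 over 1, 5 over 9, 14 over 6 and 16 over 11, with 14 of 77, 23 of 75, 28 of 78 and 32 of 73 tested genes past 2-fold lower. Of all genes tested in these pairs, 6.23%, 9.07%, 14.8% and 15.2% were past 2-fold lower. Enzymes of the tricarboxylic acid cycle had medians of 0.23, 0.00, 0.48 and 0.15, within 0.18 of the median of all genes in each pair. Cytosolic ribosomal proteins had medians of -1.56, -0.95, -1.46 and -1.49. The complex I assembly factors, which are not part of the finished complex, had medians of 0.18, -0.61, -0.06 and -1.43 over 8, 6, 8 and 6 genes.

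Across the 16 clusters that are not low-UMI, most nuclear subunits were highest in cluster 6. Of the 76 subunits with a single highest and a single lowest cluster, 57 had their highest CPM in cluster 6, which had a mean of 22031 UMIs per cell, against 12.6% of the 10535 genes of that kind. The median log2 ratio of the subunits there was 0.60 over the mean of the rest, and the 7 of 80 subunits past 2-fold higher were near the share of all genes, 8.51%. The mitochondrial encoded genes had a median of -0.12 there. The neutrophil-like cluster 7 held the lowest CPM of 34 of the 76 subunits (9.93% of all genes; median -0.51) and the B cell-like cluster 1 of 21 (7.21%; -0.47). Cluster 4, deposited as B cells, held the lowest of 13 (-0.44), near the 16.7% of all genes. Ndufa3 varied least, with 246 CPM in cluster 1 to 363 CPM in cluster 6, and among genes without tissue isoforms Ndufab1, the acyl carrier protein, varied most, with 83.0 CPM in cluster 7 to 310.0 CPM in cluster 6.

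Tissue isoforms of complex IV were low in most clusters, with Cox6a2 in cluster 18 as the exception. Cox6a2, the form of subunit 6a known from heart and skeletal muscle, had 1459 CPM (1359 to 1564) in the plasmacytoid dendritic-like cluster 18, which held 792 of its 1159 UMIs, and 0 to 12.6 CPM in each of the other 19 clusters. In cluster 18 it made up 88.4% (86.1 to 90.4) of the UMIs of Cox6a2 and Cox6a1 together, while Cox6a1 itself stood at 192 CPM, inside the range of the other clusters. Cox6b2, known from testis, had 73.9 CPM (62.9 to 86.2) in cluster 13, deposited as T cells, and at most 28.2 CPM elsewhere. Cox4i2 and Ndufa4l2 had 32 and 24 UMIs in all, 19 of each in cluster 0, deposited as Macrophages. Cluster 0 was the deepest cluster, with 12985745 UMIs, and these 19 UMIs are 1.46 CPM. In cluster 16 even 3 UMIs would be 14.1 CPM, so 0 UMIs in a shallow cluster does not show absence. Smooth muscle genes such as Myh11 (21.1 CPM) are among the leading genes of cluster 0. Its macrophage markers nevertheless summed to 6353 CPM, against 430 CPM for the smooth muscle markers. Cox7a1 had 283 UMIs in all and Cox8b 13. Cox7b2, Cox8c and 1 of the 2 rows named Atp5o had 0 counts; the annotation holds overlapping genes under the last name, so the other row's 14792 UMIs may belong to either.

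**Figure D5:**
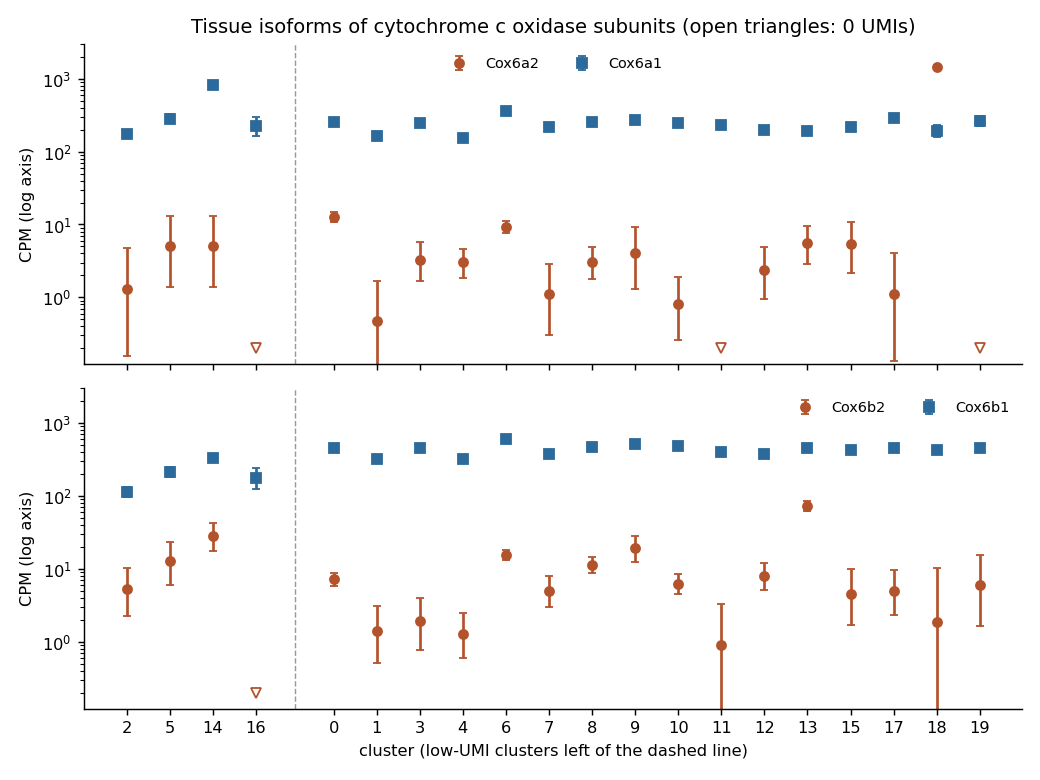
CPM by cluster on a log axis for Cox6a2 and Cox6a1 (top) and Cox6b2 and Cox6b1 (bottom), with exact 95% intervals for counting error; open triangles mark 0 UMIs. Cox6a2 exceeds Cox6a1 in cluster 18 and lies at 12.6 CPM or less in the other 19 clusters.

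Promoters are shown for a pair of subunits over 0 in all 4 pairs, Sdha and Ndufa9, and a pair past 2-fold lower in all 4, Atp5h and Atp5k, chosen after their values were seen. Each is the 250 bases before the start of the gene, from RefSeq on GRCm38.p6, on the minus strand of chr13:74350241-74350490 (Sdha), chr6:126849145-126849394 (Ndufa9), chr11:115419920-115420169 (Atp5h) and chr5:108434400-108434649 (Atp5k). Capitals mark matches to GCGCANGCG, bound by NRF1 (nuclear respiratory factor 1), and CCGGAAG, bound by ETS factors such as GABPA, on either strand; matches may overlap. Both factors are known regulators of nuclear respiratory genes.
Sdha: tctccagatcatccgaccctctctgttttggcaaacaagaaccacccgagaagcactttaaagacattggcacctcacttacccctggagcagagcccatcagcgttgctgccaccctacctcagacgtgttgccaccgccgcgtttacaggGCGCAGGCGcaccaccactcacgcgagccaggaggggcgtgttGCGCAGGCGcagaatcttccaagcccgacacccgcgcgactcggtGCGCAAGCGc
Ndufa9: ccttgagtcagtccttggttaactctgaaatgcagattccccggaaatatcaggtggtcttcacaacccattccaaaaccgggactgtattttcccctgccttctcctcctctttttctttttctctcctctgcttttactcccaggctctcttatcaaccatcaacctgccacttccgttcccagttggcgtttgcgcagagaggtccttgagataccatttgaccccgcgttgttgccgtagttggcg
Atp5h: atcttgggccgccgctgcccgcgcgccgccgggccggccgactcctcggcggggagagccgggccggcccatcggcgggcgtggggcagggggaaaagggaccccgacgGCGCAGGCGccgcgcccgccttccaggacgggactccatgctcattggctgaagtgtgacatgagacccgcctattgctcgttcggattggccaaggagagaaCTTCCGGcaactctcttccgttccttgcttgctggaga
Atp5k: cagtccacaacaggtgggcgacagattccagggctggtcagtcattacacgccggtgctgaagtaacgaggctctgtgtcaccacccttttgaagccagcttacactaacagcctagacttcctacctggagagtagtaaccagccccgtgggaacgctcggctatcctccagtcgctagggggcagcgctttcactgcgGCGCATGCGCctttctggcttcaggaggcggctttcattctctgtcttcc
Sdha holds 3 NRF1 matches, Atp5h 1 of each motif, Atp5k 2 NRF1 matches that overlap on opposite strands, and Ndufa9 none in the bases shown. Over windows of 300 bases that reach 50 bases past the start, 68 of the 84 subunit genes had an entry and 29.4% of these held the NRF1 letters, against 7.03% of 27025 genes. The ETS letters were in 23.5% against 9.93%, and AANATGGCG, bound by YY1, in 14.7% against 2.76%. The 27025 genes are all those with a promoter entry and were not limited to genes with counts in these cells. A match describes the letters and does not show binding.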

How the data were processed

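Droplet-based 3' libraries of sorted aortic leukocytes, 1 from nt-LNA and 1 from saline mice, were sequenced on a NovaSeq, per the labels' protocols. Per the submitters' processing notes, Cell Ranger 2.1.1, Seurat and mm9 were used, with no role stated; how cells were filtered and whether doublets were removed is not stated there. The authors deposited whole-number UMI counts per gene and cluster, pooled over both libraries, with a table of cells; another deposited table of scaled values was not used.

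CPM was computed from the deposited counts over each cluster's total. Log2 ratios used a pseudocount of 0.5 CPM and genes with at least 20 counts in the clusters compared (over all clusters for the mean of the rest); a gene was counted past 2-fold beyond that fold. Sums carry exact Poisson, shares exact Clopper-Pearson and ratios exact conditional 95% intervals. With 1 pooled table no test was made. The cluster depths of 212515 to 12985745 UMIs set the precision, and UMIs per cell were means.

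The members, gene lists, markers and cluster pairs were chosen with earlier results of these data known. Named were the 13 mitochondrial and 4 Sdh genes, the 3 members of each role with most counts, the 2 highest and 2 lowest ratios per role and pair, tissue isoforms and members with 0 counts, as far as needed; Cox5b, Atp5a1, Ndufa3 and genes singled out by counts over all pairs were named after their values were seen. Clusters were called X-like from at least 3 markers among their leading 50 genes, except where the first gene went against the name (cluster 11) or where UMIs per cell were few and no marker was among the leading 10 (cluster 2). Cluster 0 held 4 smooth muscle markers among its leading 50 genes but was left unnamed, and its macrophage markers had the larger summed CPM. Other totals, count minimums, pseudocounts and references were tried. Ratios were tested on simulated counts with 200 changed genes per pair. Python 3.11.15, numpy, pandas and scipy were used. Promoters came from RefSeq tables on GRCm38.p6, a build other than mm9, so genes were matched by symbol.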

Additional observations from a re-analysis of the deposited data

How the results depend on the processing

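The low-UMI clusters kept mitochondrial shares and mitochondrial to nuclear ratios over all 16 other clusters in every setting run. With ribosomal protein genes left out of the total, the shares of clusters 2, 5, 14 and 16 were 11.3%, 7.997%, 12.3% and 9.36% (other clusters 3.19% to 5.89%), and without the 2 mitochondrial genes with most counts 6.08%, 4.15%, 6.95% and 5.01% (1.55% to 2.65%). The ratio in cluster 2 was 10.6 with assembly factors and 11.1 without complex II, and that in cluster 14 was 4.86 without complex II. Complex by complex it was 6.56 (I), 19.1 (IV) and 8.70 (V) in cluster 2; 2.81 (I), 4.91 (III), 9.83 (IV) and 4.83 (V) in cluster 5; 2.92 (I), 5.60 (III) and 6.84 (IV) in cluster 14; and 5.75 (I), 6 (III), 13.8 (IV) and 7.33 (V) in cluster 16.

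The median of nuclear subunits stayed under 0 in all 4 pairs in every setting. With CPM computed without mitochondrial encoded and ribosomal protein genes it was -1.21 in cluster 2 over 1, with 48 of 75 subunits past 2-fold lower (11.8% of all genes), and -1.35 in cluster 16 over 11; the median of all genes in cluster 2 over 1 was 0.11 on that scale. Against the mean of the 16 other clusters it was -1.27 in cluster 2 (52 lower), -0.67 in cluster 5 (14 lower; 1 higher, against 22.4% of all genes) and -0.17 in cluster 14 (4 lower, 15 higher). With no minimum count, 2 of 79 subunits were past 2-fold higher in cluster 2 (26.0% of all genes). References for cluster 14 chosen after seeing the data gave a median of -0.078 for cluster 9, with 13 of 76 subunits lower (14.8% of all genes) and 8 higher (19.1%), and of -0.45 for cluster 13, with 12 of 77 lower (14.2%) and 11 higher (22.1%). The counts past 2-fold lower were thus near those of all genes. The median of all genes was 0.051 over cluster 9 and 0.18 over cluster 13, so over cluster 13 the subunit median still lay under that of all genes. Single genes that changed sign were Ndufa9 in cluster 2 (-0.19 on the reduced total, -0.41 against the mean), and Ndufs1 (-0.20 on the reduced total, -0.062 against the mean), Ndufa9 (-0.11) and Ndufa13 (-0.036) in cluster 16. The cause of these shifts was not tested.

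Among the other clusters, the median over the mean of the rest on the total without mitochondrial encoded and ribosomal protein genes was -0.083 in cluster 0, -0.27 in 1, -0.18 in 4, -0.68 in 7, -0.080 in 8, 0.18 in 9, -0.082 in 10, -0.021 in 11, -0.13 in 12, 0.33 in 13, -0.24 in 15, 0.013 in 17 and -0.15 in 19. Against the pooled counts of the rest it was -0.085 in cluster 0, -0.51 in 4, -0.080 in 8, 0.18 in 9, -0.0091 in 10 and -0.072 in 18. Cluster 10, at 0.051 on the reported scale, was thus under 0 in both settings, and cluster 6 kept the highest median in each. With the letters GCGCATGCG in place of GCGCANGCG, 11.8% of subunit promoters matched, against 1.95% of all genes.

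Of 175 alternative values of the main results, 114 stayed within the interval or within 1.5 times the count and 61 did not. UMIs per cell could not be recomputed, since counts per cell are not used here, and no replicate could be left out of 1 pooled table. No paired analysis was possible because there is 1 library per treatment and the counts pool both. The lowest depth, 212515 UMIs in cluster 16, limits single genes there to wide intervals, and intervals do not cover differences between animals or libraries.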
